A study of Mus musculus with 6 samples.

Results

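A set of 10 genes that move cholesterol out of cells, or that belong to the liver X receptor (LXR) system controlling that movement, were followed in bulk RNA sequencing of mouse optic nerve. They were Nr1h2, Nr1h3, Abca1, Abcg1, Apoe, Apoc1, Ch25h, Soat1, Npc2 and Mylip. The genes were taken by symbol, 1 row each, from a table of 25755 genes. The RNA was from Nf1flox/flox; hGFAP-Cre mice, 3 after sham surgery (mice 1, 2 and 3) and 3 after optic nerve crush (ON-CR, mice 4, 5 and 6). Surgery was done at 6 weeks of age, and nerves were studied at 12 weeks (3 months per the labels). All 6 mice carried the floxed Nf1 alleles and a Cre driven by the human GFAP promoter, which deletes Nf1 in neuroglial progenitors and their progeny. No library from mice with intact Nf1 entered the comparison, so it concerns ON-CR on an Nf1-deleted background alone. The paper reports that mice of this genotype have optic gliomas after ON-CR at the age studied here. It describes their nerves as larger, more cellular and more proliferative than after sham surgery, with more tumor-associated monocytes. Effects of the injury and of tumor formation therefore cannot be told apart in any result here. The question was how the nerve's RNA differed 6 weeks after the injury.

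In the central nervous system cholesterol is made locally, and glia release it on apolipoprotein E particles. Efflux is carried by the membrane transporters ABCA1 and ABCG1, and both genes are switched on by the LXRs when oxysterols, oxidized forms of cholesterol, bind these receptors. Phagocytes that take up myelin handle a heavy sterol load and depend on this route. Cholesterol that stays in the cell is esterified for storage, and cholesterol released in lysosomes is passed on by the NPC proteins.

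Values were the deposited normalized counts, with totals of 17414035 to 23620997 estimated reads per library, and 1 read was worth 0.885 to 1.06 normalized counts. Differences were tested by limma on log2(value + 1), with adjusted p over all genes. Of 25755 genes, 540 (2.1%) passed at a threshold of 0.05, of which 250 were higher and 290 lower after ON-CR. That total was 192, 123 and 258 without sham mouse 1, 2 and 3, and 854 and 67 without ON-CR mouse 5 and 6. Nf1 ranged from 343 to 447 in sham and from 380 to 438 after ON-CR (log2 fold change 0.10, adjusted p = 0.798 by limma). These values are per gene, so they do not check the deleted exons. The libraries also differed in sex-linked transcripts. Xist was at 2.14 to 30.9 in sham and 2708 to 6357 after ON-CR, while the Y-linked Ddx3y was at 1291 to 1645 in the 3 sham mice, 976 in ON-CR mouse 4, 4.19 in mouse 5 and 0 in mouse 6. Sex and ON-CR therefore cannot be told apart in any result here, and mouse 4 held transcripts of both kinds. Each library is labelled as 1 mouse, but the methods describe samples of more than 1 mouse for qPCR and do not say whether nerves were pooled for sequencing. ON-CR mouse 6 also had 12738 counts of Jchain, a plasma cell gene, against 12.6 to 372 in the other libraries.

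Of the 10 genes, Ch25h and Abca1 rose after ON-CR and none fell. The shares over all genes were 0.971% higher and 1.13% lower, and 2.1% in either direction. A further gene, Apoc1, was higher in every ON-CR mouse than in every sham mouse without passing the test, and Nr1h2 was lower in every ON-CR mouse without passing. The groups thus did not overlap for 4 of 10 genes, 3 higher and 1 lower, where 21.6% of all genes had groups that did not overlap. The median log2 fold change of the 10 genes was 0.07, beside 0.03 over all genes. Apoe, Abcg1, Soat1, Npc2, Nr1h3 and Mylip had overlapping groups. Both calls rest on the spread being estimated along its trend with expression, since without that trend the adjusted p by limma was 0.139 for Abca1 and 0.138 for Ch25h.

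**Figure D1:**
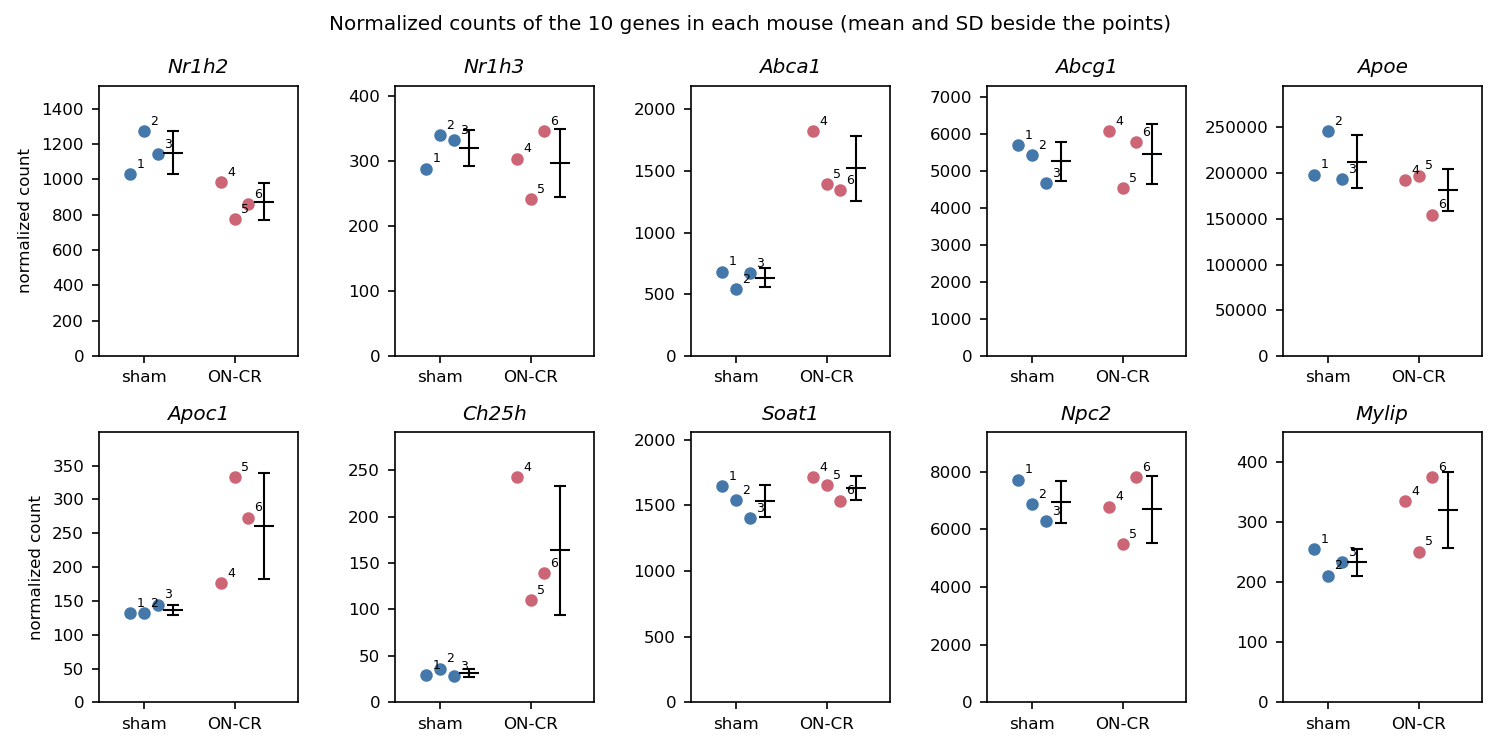
Normalized counts (vertical axes, from 0, a scale of its own for each gene) of the 10 genes in sham (blue) and ON-CR (red) mice, each point a mouse with its number and the black bar the mean with its SD. Abca1, Apoc1 and Ch25h are higher in all 3 ON-CR mice than in any sham mouse, and Nr1h2 is lower in all 3.

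NR1H2 (LXR beta) and NR1H3 (LXR alpha) are the oxysterol-activated nuclear receptors of the system, the first made in most tissues and the second enriched in macrophages and liver. Nr1h2 was at 1031, 1275 and 1145 normalized counts in sham mice 1, 2 and 3, and at 985, 776 and 860 in ON-CR mice 4, 5 and 6. The lowest sham mouse lay above the highest ON-CR mouse, by a narrow margin, and the log2 fold change was -0.40 (SE 0.13, adjusted p = 0.18 by limma). Nr1h3 was at 289, 341 and 332 in sham and at 304, 242 and 347 after ON-CR. Here mouse 6 had the highest value of all and mouse 5 the lowest, so the groups overlapped (log2 fold change -0.12, 95% interval -0.50 to 0.26, adjusted p = 0.797 by limma). The gene model Gm13783 overlaps Nr1h3 on the same strand, so part of its reads may not belong to it. The log2 ratio of Nr1h3 to Nr1h2 within a mouse was -1.84 ± 0.06 in sham and -1.56 ± 0.22 after ON-CR (SD, n = 3 each). Every ON-CR mouse had the higher ratio, and the exact permutation test (two-sided) gave p = 0.1, the smallest that 3 against 3 can give, and 0.118 after adjustment over 13 ratios. Fewer cells of a type and less RNA per cell cannot be told apart for this or any other value in bulk tissue.

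ABCA1 and ABCG1 hand cholesterol to acceptor particles, ABCA1 to lipid-poor apolipoproteins and ABCG1 to formed particles. Abca1 (ENSMUSG00000015243.4) spans chr4:53030787-53159895 on the minus strand (GRCm38). It was at 683, 544 and 671 normalized counts in sham mice 1, 2 and 3. After ON-CR it was at 1825, 1394 and 1348 in mice 4, 5 and 6. All ON-CR mice stood well above all sham mice, with means of 633 ± 76.8 and 1522 ± 263 (SD, n = 3 each), a 2.41-fold difference. The log2 fold change was 1.26 (SE 0.15, 95% interval 0.92 to 1.60, adjusted p = 0.00364 by limma), and Abca1 still passed in all 6 fits that left out 1 mouse, with fold changes of 1.12 to 1.34 on the log2 scale. Abcg1 did not show this pattern. It was at 5703, 5434 and 4683 in sham and 6088, 4548 and 5778 after ON-CR, with both the highest and the lowest value in the ON-CR group. Its log2 fold change was 0.05 (95% interval -0.26 to 0.35, adjusted p = 0.909 by limma), an interval that lies wholly below that of Abca1. The log2 ratio of Abcg1 to Abca1 within a mouse was 3.06 ± 0.26 in sham and 1.85 ± 0.22 after ON-CR (SD, n = 3 each), lower in all 3 ON-CR mice than in any sham mouse (exact permutation p = 0.1, adjusted 0.118).

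Because Abca1 is a textbook LXR target and passed the test where Abcg1 did not, its promoter is shown as the example of the response element. LXRs bind with RXR to DR4 elements, direct repeats of a hexamer spaced by 4 bases, searched here on both strands as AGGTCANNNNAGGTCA. The 250 bases before the RefSeq start of Abca1 (GRCm38.p6, minus strand, chr4:53159896-53160145) are printed with capitals marking the closest DR4 match.
Abca1: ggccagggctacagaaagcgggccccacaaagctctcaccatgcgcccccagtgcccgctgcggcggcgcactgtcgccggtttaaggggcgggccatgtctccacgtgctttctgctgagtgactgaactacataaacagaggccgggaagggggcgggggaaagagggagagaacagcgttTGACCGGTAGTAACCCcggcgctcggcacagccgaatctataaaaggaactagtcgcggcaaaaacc

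The match differs from the consensus at 3 of the specified bases, lies on the strand opposite to the gene's at chr4:53159947-53159962, and begins 67 bases before the start site. A match allowing 3 mismatches was present in 21.9% of 32851 RefSeq promoter windows of 250 bases before to 50 after a start, so such a match is common. At 2 mismatches, found in 3.02% of windows, none of the 11 windows of 8 of the genes held a match, and the looser search was added after that. Abca1 was the one gene of these with a match at 3 mismatches. Abcg1 and Apoc1 had no window. The half-site AGGTCA (16.3% of windows) and the sterol element TCACNCCAC (1.24%) were in none of the 11 windows, and the GC box GGGCGG (35.7%) was in those of Abca1, Npc2, Mylip and Soat1.

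APOE is the main lipid carrier of the central nervous system, released by astrocytes and by microglia. Apoe was at 198275, 246063 and 193285 normalized counts in sham mice and at 192680, 197289 and 154617 after ON-CR. Mice 4 and 5 lay within or next to the sham range and mouse 6 was the lowest of all, so the groups overlapped. The log2 fold change was -0.23 (95% interval -0.62 to 0.16, adjusted p = 0.587 by limma). Per kb of exon it was the 15th most abundant of 25025 genes with a length, at 115637 ± 15853 normalized counts per kb in sham and 98764 ± 12742 after ON-CR (SD, n = 3 each). APOC1, a small apolipoprotein that inhibits lipoprotein uptake and lipase action, is encoded beside it, with 3448 bases between both genes on chromosome 7. Apoc1 was at 132, 132 and 145 in sham mice 1, 2 and 3, and at 176, 332 and 273 in ON-CR mice 4, 5 and 6. The sham mice were close to each other and the ON-CR mice spread widely above them (log2 fold change 0.89, SE 0.23, adjusted p = 0.0891 by limma). Without ON-CR mouse 4, the lowest of its group, the adjusted p was 0.0262 by limma, the only 1 of 17 alternatives in which Apoc1 passed. It was 0.226, 0.293 and 0.175 by limma without sham mouse 1, 2 and 3, and 0.144 and 0.320 without ON-CR mouse 5 and 6. The log2 ratio of Apoc1 to Apoe was -10.59 ± 0.24 in sham and -9.48 ± 0.53 after ON-CR (SD, n = 3 each), higher in every ON-CR mouse (exact permutation p = 0.1, adjusted 0.118).

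**Figure D2:**
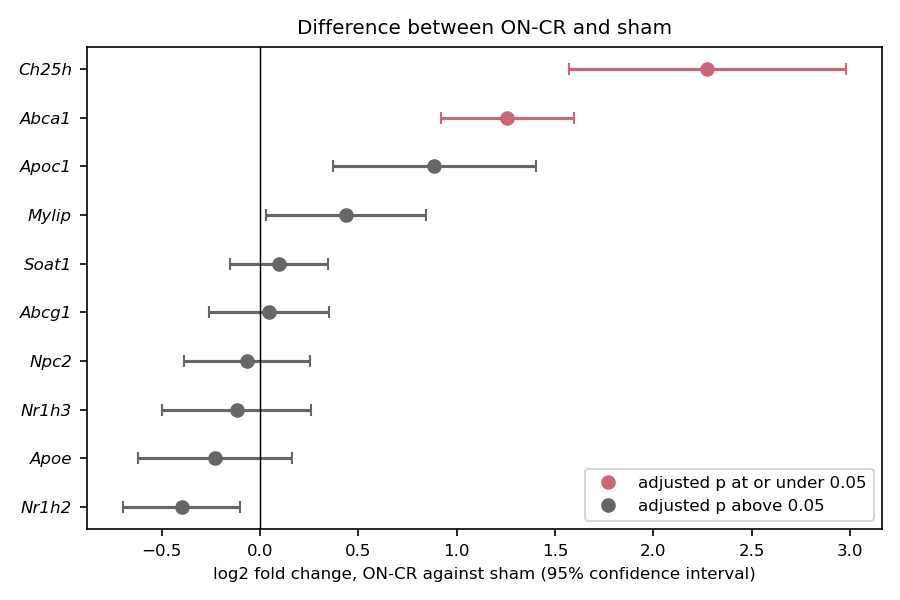
Log2 fold change of each of the 10 genes, ON-CR against sham (horizontal axis), with the 95% confidence interval by limma as bars, red where the adjusted p was at or under 0.05. Ch25h and Abca1 stand apart from 0 on the right, while the intervals of Soat1, Abcg1, Npc2, Nr1h3 and Apoe all include 0. The intervals of Apoc1 and Mylip (right) and of Nr1h2 (left) also exclude 0, though these genes did not pass after adjustment.

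CH25H, cholesterol 25-hydroxylase, makes the oxysterol 25-hydroxycholesterol, an LXR ligand that also restrains cholesterol synthesis, and its gene is induced in activated macrophages. Ch25h (ENSMUSG00000050370.5) spans chr19:34473778-34475164 on the minus strand (GRCm38). Its RNA was at 29.5, 36.3 and 28.2 normalized counts in sham mice and at 242, 110 and 139 after ON-CR. The lowest ON-CR mouse was far above the highest sham mouse, with means of 31.3 ± 4.36 and 164 ± 69.5 (SD, n = 3 each), a 5.22-fold difference. The log2 fold change was the largest of the 10, 2.28 (SE 0.32, 95% interval 1.57 to 2.98, adjusted p = 0.00661 by limma). Its adjusted p was 0.0709 by limma without ON-CR mouse 6, with a log2 fold change of 2.35, and then Abca1 alone of the 10 genes passed. Gm26902, a gene on the opposite strand that overlaps Ch25h, was at 4.43 to 19.3 in sham and 13.2 to 24.1 after ON-CR. Reads of this overlap cannot be told apart by strand in these libraries. The 250 bases before the RefSeq start of Ch25h (GRCm38.p6, minus strand, chr19:34475149-34475398) are printed as those of the gene with the largest difference, with capitals marking a cAMP response element, TGACGTCA.
Ch25h: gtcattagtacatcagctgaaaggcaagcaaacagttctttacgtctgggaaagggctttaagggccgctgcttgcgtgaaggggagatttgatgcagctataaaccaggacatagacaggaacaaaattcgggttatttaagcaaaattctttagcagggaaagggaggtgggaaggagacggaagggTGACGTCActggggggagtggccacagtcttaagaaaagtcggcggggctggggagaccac

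This element reads the same on both strands, lies at chr19:34475202-34475209, and begins 61 bases before the start site. It was found in 1.79% of RefSeq windows and in no window of the other genes, and it was searched for after the sequence had been seen. No DR4 match at 3 mismatches was found in the Ch25h window.

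The genes for storage, lysosomal release and control of uptake did not pass the test. SOAT1 esterifies cholesterol for storage in droplets. Soat1 was at 1648, 1541 and 1403 normalized counts in sham and 1712, 1652 and 1536 after ON-CR, a small shift with overlapping groups (log2 fold change 0.10, 95% interval -0.15 to 0.34, adjusted p = 0.744 by limma). NPC2 binds cholesterol inside the lysosome and hands it to NPC1. Npc2 was at 7725, 6877 and 6288 in sham and 6796, 5483 and 7802 after ON-CR, with the highest and the lowest mouse both in the ON-CR group (log2 fold change -0.07, 95% interval -0.39 to 0.25, adjusted p = 0.874 by limma). MYLIP is an LXR-induced ubiquitin ligase that limits lipoprotein uptake. Mylip was at 255, 211 and 233 in sham and 334, 251 and 374 after ON-CR. Mice 4 and 6 were above every sham mouse and mouse 5 was within the sham range (log2 fold change 0.44, 95% interval 0.03 to 0.85, adjusted p = 0.282 by limma).

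Levels between genes were compared per kb of exon model. In sham nerves the order was Apoe, Npc2 (2111 ± 219 normalized counts per kb), Abcg1 (772 ± 77.4), Nr1h2 (573 ± 60.7), Apoc1 (246 ± 13.4), Soat1 (183 ± 14.7), Nr1h3 (149 ± 13.0), Mylip (72.0 ± 6.80), Abca1 (61.7 ± 7.48) and Ch25h (22.6 ± 3.14), each as mean and SD over 3 mice. Mylip and Abca1 were neighbours whose mice overlapped. After ON-CR the first 3 places were held by the same genes, and Apoc1 (470 ± 142) and Nr1h2 (435 ± 52.5) overlapped. Abca1 (148 ± 25.6), Nr1h3 (139 ± 24.5), Ch25h (118 ± 50.1) and Mylip (98.8 ± 19.5) then formed a run of overlapping neighbours below Soat1 (195 ± 10.7). Ch25h thus went from the least abundant by a clear margin to a level near that of Nr1h3.

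Markers of other cell types differed between the groups too, and the 10 genes were set beside them. Of 12 myeloid markers, genes of microglia and macrophages, 4 rose (Aif1, Cd68, C1qa and C1qb) and none fell, with a median log2 fold change of 0.70 and summed counts of 20660 to 26487 in sham and 28567 to 45200 after ON-CR. Of 10 oligodendrocyte markers 8 fell, and summed counts went from 1301280 to 1857020 in sham to 635013 to 752697 after ON-CR. By the same test 0.971% of all genes rose and 1.13% fell. Among 10 astrocyte markers 1 fell (S100b), and the median log2 fold change was 0.016, with 4 of the 10 negative. Their summed counts were 227840 to 282666 in sham and 292728 to 323982 after ON-CR. Gfap took much of these sums, with means of 114862 in sham and 179241 after ON-CR. No marker passed among 8 endothelial, 8 fibroblast and meningeal, 7 B and plasma cell, 7 skeletal muscle and 4 photoreceptor genes by limma, and muscle and photoreceptor sums stayed under 284 in every mouse. The number at an unadjusted p under 0.05 was 1 for each of these lists except the fibroblast and meningeal list, where it was 5. Over all genes 15.6% reached that level. All 8 fibroblast and meningeal markers had a negative log2 fold change (median -0.38), as did 47.2% of all genes. Among the 8 endothelial markers 6 were negative and 2 positive. Summed endothelial counts were 8140 to 8623 in sham and 6457 to 7943 after ON-CR. The count of all markers passing was 13, and it was 4 without sham mouse 1, and 1 without sham mouse 2 or without ON-CR mouse 6. Gfap and Mbp, markers of astrocytes and oligodendrocytes, were abundant in every mouse, and no marker particular to optic nerve was examined.

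Relative to the mean of the 12 myeloid markers within each mouse, the 10 genes showed 3 patterns. Ch25h remained higher in every ON-CR mouse, with a log2 ratio of -5.31 ± 0.24 in sham and -3.76 ± 0.45 after ON-CR, a difference of 1.55. Abca1 was at -1.02 ± 0.17 and -0.48 ± 0.37, a difference of 0.54 with overlapping groups (exact permutation p = 0.2), and mouse 6 was within the sham range. For Apoc1 the values were -3.22 ± 0.18 and -3.06 ± 0.75, a difference of 0.16 (exact permutation p = 0.8). ON-CR mouse 5 (-2.25) was above the sham range, mouse 4 (-3.73) below it and mouse 6 (-3.20) within it. The other 7 genes were lower relative to the myeloid markers in every ON-CR mouse, from -0.28 for Mylip and -0.63 for Soat1 to -0.95 for Apoe and -1.12 for Nr1h2. Each of those 7 ratios and that of Ch25h had an exact permutation p of 0.1, the smallest possible, and 0.118 after adjustment over the 13 ratios, of which 11 had groups that did not overlap. The 7 lower ratios share a denominator that was itself higher after ON-CR (median log2 fold change of the list 0.70). A gene with no difference therefore also comes out lower. The share of all genes whose ratio to this list separates was not counted. The myeloid list includes P2ry12 and Tmem119, homeostatic microglial genes with negative fold changes, so the ratio is to this list as a whole and not to a number of cells. Beyond these ratios, the part of myeloid content in any value was not tested, and the same holds for oligodendrocyte content.

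**Figure D3:**
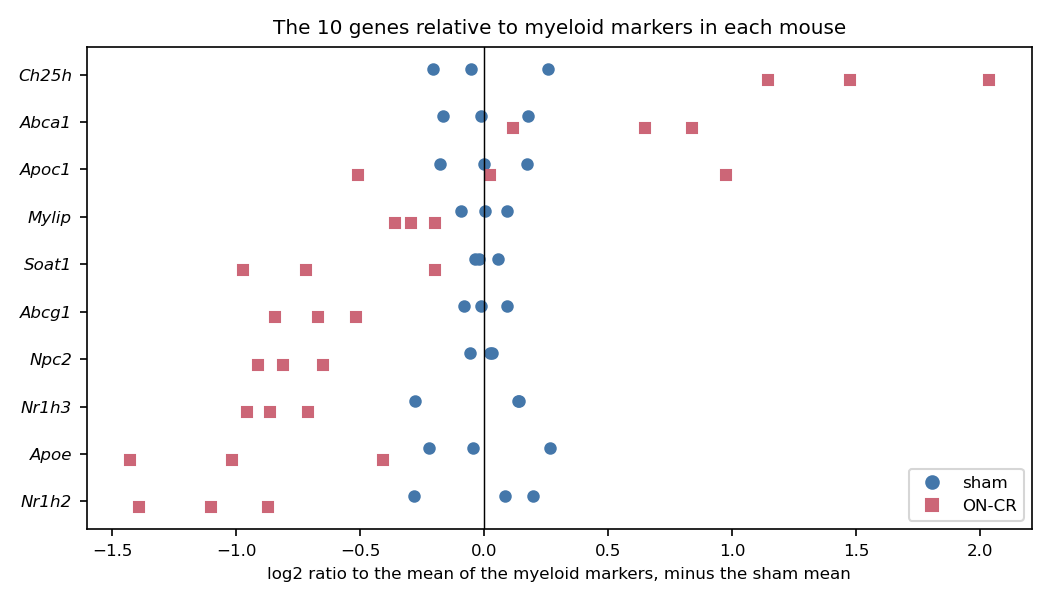
Log2 ratio of each gene to the mean of 12 myeloid markers in each mouse, with the sham mean of that gene subtracted (horizontal axis), sham mice as blue circles and ON-CR mice as red squares. Ch25h alone has all 3 ON-CR mice to the right of all sham mice, and 7 genes have all 3 to the left.

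Around the 10 genes, 61 further genes of sterol efflux, lipoproteins and LXR signalling were in the table, of 64 listed. By limma 6 of them rose and 2 fell, where 2.1% of all genes passed, and for 24 the groups did not overlap (11 higher and 13 lower). Over all genes the groups did not overlap for 21.6%, with 10.5% higher and 11% lower. Their median log2 fold change was -0.09. Those that rose were Lpl, Apoc4, Trem2, Arl4c, Cyp7b1 and Nceh1. Those that fell were Acat2 and Scd1. The number passing was 4, 3 and 5 without sham mouse 1, 2 and 3, and 2 without ON-CR mouse 6.

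Among the 9 apolipoproteins and lipoprotein enzymes, Lpl and Apoc4 rose. Lpl, lipoprotein lipase, which frees fatty acids from lipoproteins, was at 246, 175 and 209 in sham and 2211, 971 and 1336 after ON-CR, a clear gap (log2 fold change 2.76, adjusted p = 0.00128 by limma). Apoc4, in the same chromosome 7 cluster as Apoe and Apoc1, was at 4.24, 5.31 and 6.57 in sham and 49.8, 36.4 and 21.5 after ON-CR (log2 fold change 2.47, adjusted p = 0.028 by limma). Its sham values are a few reads each, so the size of the difference is poorly set. Apoc2, the lipoprotein lipase cofactor 141 bases from Apoc4, had a difference of 1.85 on the log2 scale (limma, adjusted p = 0.133), with groups that did not overlap, and reads may be shared by both. Apoc2 was named for its place in this cluster after its value was known. Its sham values of 7.43, 2.91 and 3.09 are also a few reads each. The cluster thus held 1 gene that passed, 2 that were higher in every ON-CR mouse without passing, and Apoe. Over all genes 10.5% were higher without overlap. Clu, clusterin, took the most counts of this group and had a difference of 0.11 on the log2 scale (limma, adjusted p = 0.8).

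LXR targets outside efflux were 7, of which Arl4c, a small GTPase, rose and Scd1, the stearoyl-CoA desaturase, fell. Arl4c was at 85.1, 104 and 103 in sham and 203, 216 and 221 after ON-CR (log2 fold change 1.13, adjusted p = 0.0138 by limma). Scd1 was at 8918, 6952 and 6402 in sham and 3879, 4051 and 3321 after ON-CR (log2 fold change -0.98, adjusted p = 0.00816 by limma). Scd1 is also a target of the sterol regulatory element-binding proteins (SREBPs) and is abundant in oligodendrocytes, whose markers fell in the same nerves, and the part of that fall in its value was not tested. The LXR targets of lipid synthesis Srebf1 (log2 fold change -0.00, adjusted p = 0.99 by limma) and Lpcat3 (-0.07, adjusted p = 0.877) did not pass; both were picked with their values in view. Abca1 and Arl4c thus passed as higher and Scd1 as lower, while Abcg1, Apoe, Mylip, Srebf1 and Lpcat3 did not pass. That is not a full tally of LXR targets, since each gene was listed under 1 role only. Lpl and Apoc4, which also passed as higher, were listed with the apolipoproteins and lipoprotein enzymes.

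Of 5 lipoprotein receptor genes 1 rose and none fell. Trem2, a myeloid receptor that binds lipids and apolipoproteins, was at 726, 556 and 463 in sham and 1964, 1397 and 2174 after ON-CR (log2 fold change 1.66, adjusted p = 0.00353 by limma). Lrp1, the receptor with the most counts, had a difference of 0.03 on the log2 scale (limma, adjusted p = 0.943), which was negative without sham mouse 2, ON-CR mouse 4 or ON-CR mouse 5.

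Of 7 oxysterol and sterol hydroxylase genes 1 rose. Cyp7b1, which breaks down 25-hydroxycholesterol, the product of CH25H, was at 438, 418 and 476 in sham and 683, 655 and 780 after ON-CR (log2 fold change 0.67, adjusted p = 0.031 by limma). Cyp7b1 and Ch25h both passed the same test, so being higher in the same mice follows from that. Within the ON-CR group Ch25h was highest in mouse 4 and Cyp7b1 in mouse 6. Cyp39a1, a further oxysterol hydroxylase and the one with the most counts, had a difference of -0.66 on the log2 scale (limma, adjusted p = 0.0545).

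The list of sterol ester and lipid droplet genes had 6 members. Nceh1, a cholesteryl ester hydrolase of macrophages, was at 1279, 1203 and 1273 in sham and 1912, 1667 and 1756 after ON-CR (log2 fold change 0.50, adjusted p = 0.0447 by limma). Acat2 was at 3631, 2931 and 2938 in sham and 1368, 1519 and 1382 after ON-CR (log2 fold change -1.15, adjusted p = 0.00216 by limma). In spite of its place in that list, Acat2 encodes the cytosolic acetoacetyl-CoA thiolase at the start of cholesterol synthesis and not an esterifying enzyme. Acat2 and Scd1, the genes of the 61 that fell, are both known SREBP targets, named as background and not tested as a group.

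No gene passed by limma among 10 of lysosomal and intracellular sterol transport, 8 sterol transporters and 9 receptor partners and cofactors. At an unadjusted p under 0.05 the numbers were 4, 3 and 1, where 15.6% of all genes reached it. Of the 10 lysosomal and transport genes 9 had a negative log2 fold change, and for 5 every ON-CR mouse was below every sham mouse. Over all genes 47.2% had a negative log2 fold change and 11% were lower without overlap. Npc1, the lysosomal partner of NPC2, had the most counts of this group and a difference of -0.53 on the log2 scale (limma, adjusted p = 0.0703). Abca2, a transporter of oligodendrocytes and the sterol transporter with the most counts, was at -0.48 (adjusted p = 0.136 by limma). Ncor1, a corepressor of nuclear receptors, had a difference of 0.28 on the log2 scale (limma, adjusted p = 0.268).

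**Figure D4:**
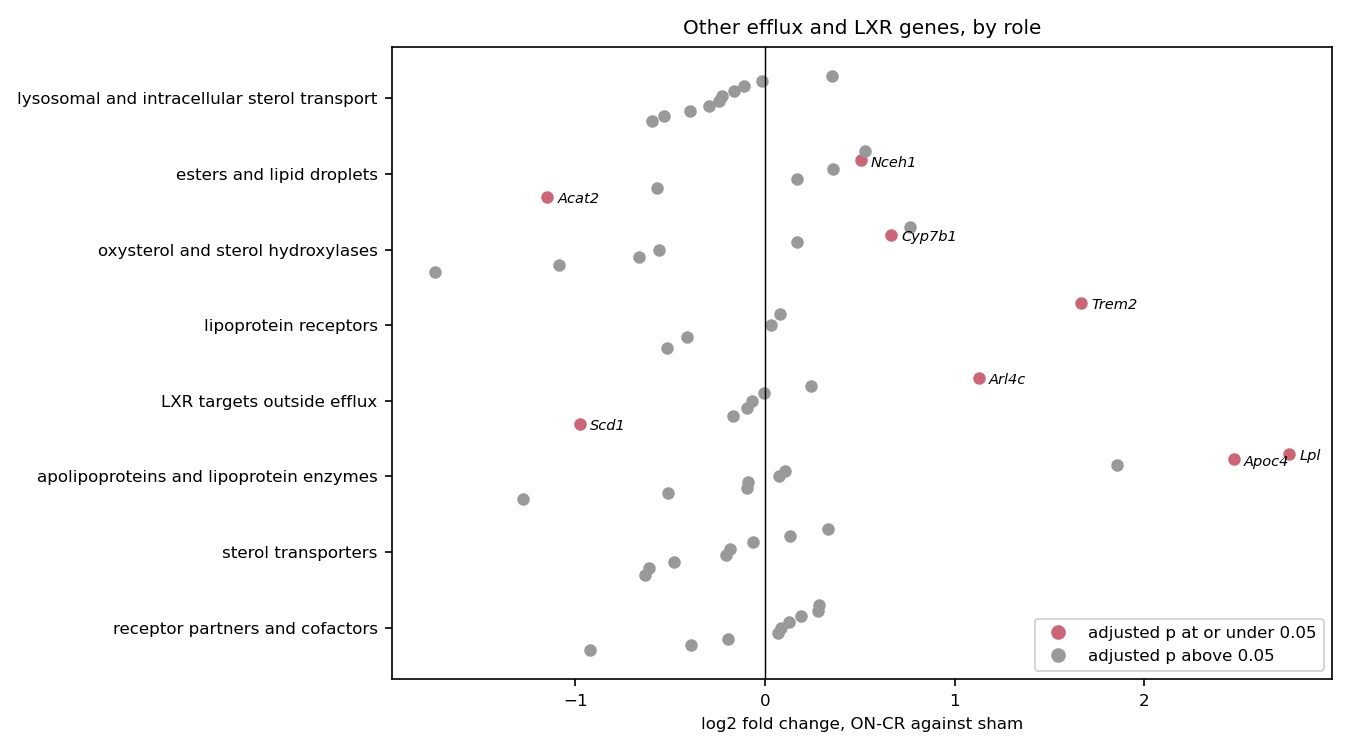
Log2 fold change, ON-CR against sham (horizontal axis), of the 61 further genes, each a point in the row of its role, red and named where the adjusted p by limma was at or under 0.05. Named points lie on the right for Lpl, Apoc4, Trem2, Arl4c, Cyp7b1 and Nceh1 and on the left for Acat2 and Scd1, and 9 of the 10 genes in the lysosomal row lie left of 0.

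Of these 8 genes, Lpl and Acat2 still passed in all 6 fits that left out 1 mouse. Trem2 reached 0.0518 by limma without ON-CR mouse 6, and Scd1 reached 0.0529 without sham mouse 2 and 0.0902 without ON-CR mouse 6. For Arl4c the adjusted p by limma was 0.0621 and 0.0615 without sham mouse 1 and 2, and 0.106 without ON-CR mouse 6. Apoc4, Cyp7b1 and Nceh1 passed with ON-CR mouse 5 left out and with no other mouse left out, and their highest adjusted p by limma was 0.121, 0.173 and 0.222.

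The genes whose profiles over the 6 mice were most like those of Abca1 and Apoe were found by Euclidean distance on log2(value + 1), centred on the sham mean, among 14435 genes with a mean value of at least 50. Those nearest to Abca1 were Mmp19, Hmga1, Rgs4, Ctsd and Gm43544, at distances of 0.48 to 0.57. Ctsd, the lysosomal protease cathepsin D, was at 21886, 18759 and 16912 in sham and 44914, 37730 and 49872 after ON-CR. For Apoe the nearest were Ankra2, Mtss2, Cttnbp2, Map1s and Tmem70, at distances of 0.07 to 0.10 and, like Apoe, with their highest value in sham mouse 2 and their lowest in ON-CR mouse 6. Likeness over 6 mice of 2 groups describes these profiles and carries no test.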

How the data were processed

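RNA from optic nerves of 6 mice, 3 sham and 3 ON-CR per the labels, was prepared with a SMARTer Ultra Low kit, which does not mark strand. The authors aligned and quantified reads with Illumina DRAGEN, assigned them to mm10 Ensembl models and applied median normalization in Partek Flow 10.0. The deposited values are therefore a signal, counts scaled by 1 factor per library. Of values up to 100 reads, 72.6% to 74.5% were whole reads within a tolerance of 0.05, so no count test was run. The labels name 1 mouse per library. Whether nerves of several mice were pooled for sequencing is not given in the sources used here, and p-values cover the spread between libraries. Replicate libraries differed by more than counting noise (chi-square per degree of freedom 16.5 to 47.2).

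All 25755 genes were tested by limma 3.58.1 (R 4.3.3; lmFit, eBayes with trend) on log2(value + 1), two-sided, Benjamini-Hochberg over all genes, threshold 0.05, with no filter. Fold changes on this scale understate those of low genes. The fit was tested on simulated data. Ratios within a mouse were compared by exact permutation. The 10 genes, the 61 further genes and the marker lists were chosen with earlier results of these data known. Named further genes are those past the threshold and the one with the most counts in each role, with Apoc2, Srebf1 and Lpcat3 added after their values were seen, and 1 gene of the list is not reported here. Coordinates are GRCm38; promoters are RefSeq, GRCm38.p6. Lengths matched 25025 genes. Alternatives were other pseudocounts (0.1, 0.5, 2), scalings, filters, variance models, sample weights and leaving out each mouse; applying them to the marker lists, the looser DR4 search and the cAMP element were chosen after seeing the data.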

Additional observations from a re-analysis of the deposited data

How the results depend on the processing

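Signs of the log2 fold change turned for 3 of the 10 genes, all with values near 0. Scaling to the library total gave 0.0094 for Nr1h3 and 0.062 for Npc2, and moved the median over all genes from 0.03 to 0.15. Over the fits that left out 1 mouse, Nr1h3 ran from -0.24 to 0.022 (positive without ON-CR mouse 5), Abcg1 from -0.036 to 0.17 (negative at -0.036 when sham mouse 3 was left out, and so too for ON-CR mouse 4) and Npc2 from -0.18 to 0.070 (0.011 when sham mouse 1 and 0.070 when ON-CR mouse 5 was left out). Lrp1 ran from -0.077 to 0.18, being -0.077 without ON-CR mouse 4, -0.013 when mouse 5 was left out and -0.0060 when sham mouse 2 was. Abca1 and Ch25h were positive under all 17 alternatives, at 1.12 to 1.39 and 1.95 to 2.52. With no mean-variance trend, limma called 0 of the 10 genes (3 at an unadjusted p under 0.05), 0 of the 61 further genes (20 at an unadjusted p under 0.05), 0 of the markers and 7 of all genes. The cause was not tested. Leaving out each mouse in turn gave 1 to 3 of the 10 genes, 2 to 11 of the 61, 67 to 854 of all genes and 1 to 18 markers. Of 13 ratios 11 to 12 had groups that did not overlap. No paired analysis was possible because the mice carry different numbers in both groups. With 3 mice a group the exact test cannot go below 0.1, and Ch25h in sham rests on low counts, with 1 read worth about 1 normalized count.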
